A study of Mus musculus with 230 samples.

Results

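Carhsp1, Abca1, Alkal2, Gpm6a, Sptb, S1pr3 and Sept4 are 7 of the 53278 genes counted in dorsal root ganglion (DRG) sensory neurons of C57BL/6 X CAST/Ei crossed mice. They were chosen by their counts in single neurons, pooled by group. In injured neurons Carhsp1, Abca1, Alkal2 and Gpm6a lay over 2-fold above intact neurons, and Sptb, S1pr3 and Sept4 over 2-fold below, both at 1 month and at 1 year of age. The single-cell differences between injured and intact neurons chose the genes, so they are given here as a description with no test. Low-input RNA libraries of the same kind of neuron, at 3 ages, carry the tests. Their counts were not the measure of that choice, though the genes were chosen with earlier results of these data known. All 7 genes passed the expression filter of those libraries, among 14212 genes tested.

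Mice of the cross had sciatic nerve injury surgery at different ages, and neurons labelled injury or intact were picked by hand from enzymatically dissociated lumbar L4 and L5 ganglia. Each nucleus was removed for bisulfite sequencing and the remaining cytoplasm went to SMART-seq2, so the counts are those of cytoplasmic RNA. The groups used here are 3 injured and 3 intact low-input libraries at each of 1, 8 and 12 months, and single cells of both conditions at 1 month and at 1 year. All groups share the cross, and no drug, transgene or other allele is named for any of them. The labels do not give the time from surgery to collection, nor the animal behind a library, nor whether intact neurons came from operated animals. The p-values below therefore measure the spread between these libraries, which may be technical.

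Cutting or crushing a peripheral nerve axon sets off a change of gene expression in the neuron's cell body, in which Atf3, Jun, Sox11, Gal and Npy are well-known risers and which goes with regrowth of the axon. The 7 genes belong to different parts of the cell. Abca1 moves cholesterol out of the cell and is a textbook target of the liver X receptors (LXR), Alkal2 is a secreted ligand of the receptor tyrosine kinase ALK, and S1pr3 is a receptor for the lipid signal sphingosine-1-phosphate. Gpm6a is a membrane proteolipid of neurites, Sptb is a beta-spectrin of the membrane skeleton, Sept4 is a septin, a family of GTP-binding proteins that form filaments, and Carhsp1 is a cold shock domain protein that binds RNA.

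Of 69 single cells, 55 held at least 100000 counts outside the spike-ins and the most abundant feature, CT010467.1, and only these were used: at 1 month 17 cells with injury and 12 without, and at 1 year 18 with and 8 without. They held between 119832 and 22890735 such counts. The low-input libraries held between 7531967 and 19443627 counts, of which CT010467.1 took between 29.4% and 93.8%. The intact 12-month replicate 2 stood apart, with 770328 counts left outside that feature and 10778 genes detected. The results of Abca1, the averaged change of S1pr3 and the correlations are given with and without it. Other results include it. Neuronal markers were present in every cell used, with a summed level of at least 868 CPM, the counts scaled to a depth of 1e+06, over 10 genes. In the low-input libraries 11 of 12 nerve injury genes rose with injury, and Gap43 had log2 1.83 and adjusted p = 0.139 by edgeR. Counts from Y-linked genes were found in all 6 libraries at 1 month, all 6 at 8 months and none of 6 at 12 months, while Xist was counted in 5 of the last 6, so age and sex cannot be told apart at 12 months.

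In pooled single cells, Carhsp1 reached 227 CPM in injured against 57.7 CPM in intact cells at 1 month, and 96.96 against 19.2 CPM at 1 year. Abca1 reached 225 against 61.6 CPM at 1 month and 170 against 40.2 CPM at 1 year. Alkal2 reached 88.4 against 25.01 CPM at 1 month and 113 against 23.7 CPM at 1 year. In these 3 genes the injured cells thus held between 3.53 and 5.06 times the pooled level of the intact cells. Gpm6a, the fourth gene on the higher side, had the smallest ratios, 2.65 at 1 month and 2.54 at 1 year, from 99.1 against 37.3 CPM and 56.003 against 22.05 CPM.

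On the lower side, Sptb pooled to 11.4 CPM with injury against 80.2 CPM without it at 1 month, and 16.1 and 106 CPM at 1 year. S1pr3 had 8.43 and 150 CPM at 1 month, and 41.8 and 181 CPM at 1 year. Sept4 had 14.3 and 72.1 CPM at 1 month, and 46.2 and 182 CPM at 1 year. The exact Poisson intervals of these pooled levels are narrow, for example 7.66 to 9.26 CPM around the 8.43 CPM of S1pr3, but they cover counting error only and not the difference between cells. Of all genes with a pooled level of at least 5 CPM in either group, 7.28% were over 2-fold higher and 12.1% over 2-fold lower in injured cells at 1 month, 9.48% higher and 7.35% lower at 1 year, and 1.25% higher and 1.95% lower at both ages. Since those differences chose the 7 genes, nothing is read from the comparison with these shares.

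**Figure D1:**
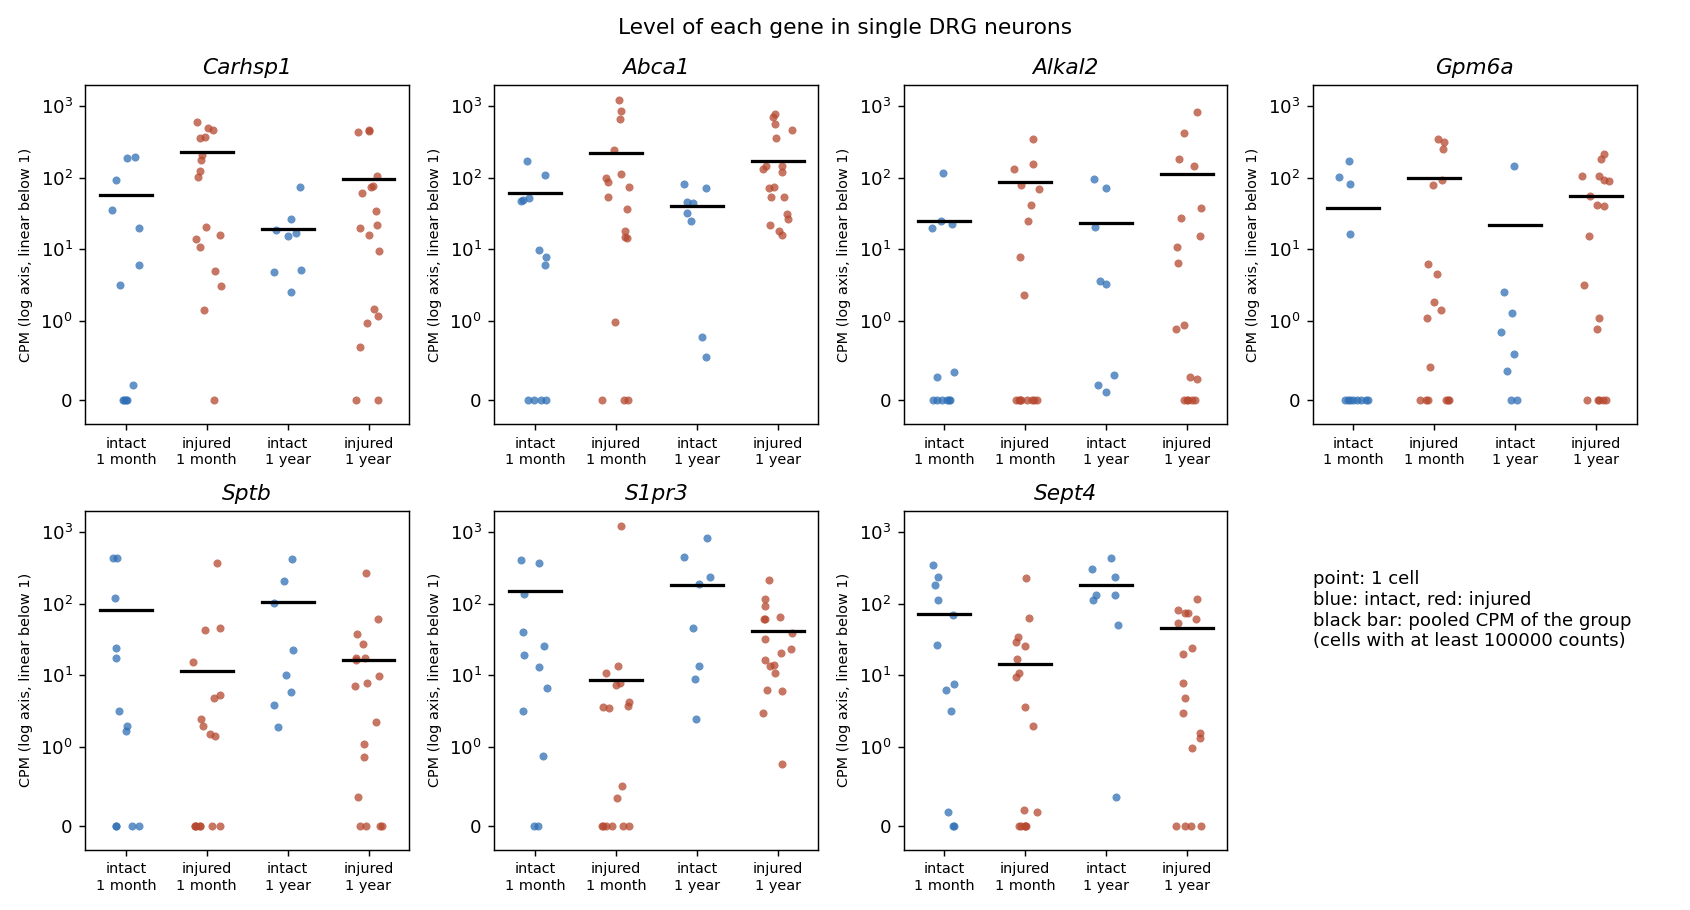
Level of each of the 7 genes in 55 single neurons, in CPM on an axis that is logarithmic above 1 and linear below it; each point is 1 cell, blue intact and red injured, and the black bar is the pooled CPM of the group. The injured and intact cells of every gene overlap at both ages, and the pooled bar lies above the median cell of every group.

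Single cells of 1 group differed from each other by far more than the pooled levels did. Carhsp1 ran from 0 to 602 CPM in injured cells at 1 month, with a median of 103, against 0 to 193 CPM with a median of 4.57 in intact cells. At 1 year it ran from 0 to 469 CPM with a median of 20.97 in injured cells, against 2.53 to 73.8 CPM with a median of 16.3. The high Carhsp1 cells carried the difference: 9 of 17 injured cells at 1 month and 4 of 18 at 1 year lay over 100 CPM, against 2 of 12 and 0 of 8 intact cells.

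Abca1 ran from 0 to 1243 CPM, with a median of 53.5, in injured cells at 1 month, and from 0 to 174 CPM, with a median of 8.79, in intact cells. At 1 year it had counts in all 18 injured cells, from 16.1 to 779 CPM with a median of 98.7, and in all 8 intact cells, from 0.544 to 81.3 CPM with a median of 38.03. At 1 year 9 of 18 injured cells thus lay over 100 CPM and above every intact cell, while the other injured cells lay within the intact range.

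Alkal2 was at 0 in 8 of 17 injured and 6 of 12 intact cells at 1 month, and its highest values were 349 and 116 CPM. At 1 year the highest injured cell had 841 CPM and the highest intact cell 97.8 CPM, while the medians were close, 3.71 and 3.42 CPM. A few cells therefore set the pooled Alkal2 levels: the highest cell alone gave 65.2% of the injured group's counts at 1 month and 54.2% at 1 year.

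Gpm6a was at 0 in 6 of 17 injured and 8 of 12 intact cells at 1 month, with highest values of 345 and 174 CPM. At 1 year the injured cells ran from 0 to 218 CPM with a median of 28.2. Among the 8 intact cells at 1 year, 1 cell at 148 CPM gave 97.3% of the group's Gpm6a counts and the others lay at or below 2.52 CPM. Without the highest cell of each group, the log2 ratio of injured over intact at 1 year went from 1.34 to 6.13.

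Among the genes on the lower side, Sept4 was high in most intact cells at 1 year: 6 of 8 lay over 100 CPM, with a median of 132 CPM, against 1 of 18 injured cells and a median of 6.25 CPM. At 1 month 4 of 12 intact and 1 of 17 injured cells lay over 100 CPM, with medians of 16.9 and 3.59 CPM. Sptb was high in few cells of any group, with 3 of 12 intact cells over 100 CPM at 1 month, 3 of 8 at 1 year, and 1 injured cell at each age. Its medians at 1 month were 2.55 CPM in intact and 1.51 CPM in injured cells, and the 2 highest intact cells stood at 436 and 433 CPM.

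S1pr3 at 1 month depended on how cells are weighted. Its pooled log2 ratio of injured over intact was -4.16, and it was -0.17 when each cell counted equally and -0.21 when each cell was thinned to 100000 counts. A single injured cell stood at 1236 CPM while the other 16 lay at or below 13.3 CPM. At 1 year S1pr3 was counted in all 18 injured cells, from 0.779 to 212 CPM with a median of 21.8, and in all 8 intact cells, from 2.43 to 840 CPM with a median of 117. The equal-weight log2 ratio at 1 year was -2.34, close to the pooled -2.11.

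Cells that were high for a gene of the one side were rarely high for a gene of the other. Over 100 CPM for at least 1 of the 4 higher genes were 11 of 17 injured cells at 1 month, 13 of 18 injured cells at 1 year, 4 of 12 intact cells at 1 month and 1 of 8 intact cells at 1 year. For at least 1 of the 3 lower genes the numbers were 2, 4, 8 and 7 of the same groups. Cells over 100 CPM on both sides numbered 0, 2, 1 and 0. These counts follow from the choice of the genes and show only how the levels are spread over cells.

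Many cell names end in S, M, L or ML, letters the labels do not explain, and the 8 intact cells at 1 year carry none. Carhsp1 had its highest medians in injured cells with the letter S, 466.5 CPM over 5 cells at 1 month and 433 CPM over 5 cells at 1 year. In injured L cells its medians were 72.3 CPM over 4 cells at 1 month and 1.46 CPM over 5 cells at 1 year. Gpm6a followed the same letter, with medians of 94.2 and 92.7 CPM in injured S cells against 3.71 and 1.09 CPM in injured L cells. Among the 3 intact S cells at 1 month the medians were 94.0 CPM for Carhsp1 and 81.3 CPM for Gpm6a, so both genes also had high values in S cells without injury.

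The ganglion named for cells at 1 month also went with some levels. In injured cells Abca1 pooled to 403 CPM over 10 L4 cells and to 56.5 CPM over 7 L5 cells. Alkal2 went the other way, with 28.7 CPM in L4 and 145 CPM in L5 cells, and so did Gpm6a, with 17.9 and 176 CPM. In intact cells, of which 9 were L4 and 3 L5, Abca1 pooled to 48.9 and 75.3 CPM and Gpm6a to 34.9 and 39.97 CPM. Within a ganglion, Abca1 was thus lower in injured than in intact L5 cells (log2 -0.42) and Gpm6a lower in injured than in intact L4 cells (log2 -0.96), against the direction in all cells. Sptb had 22.4 CPM in injured and 29.4 CPM in intact L4 cells, log2 -0.39, and log2 -7.16 in L5 cells, where 1 of 3 intact cells stood at 436 CPM. The other 4 genes kept their direction in both ganglia. Each ganglion's cells may come from 1 animal, so these values describe cells only.

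Across the 55 cells the genes went with several classes of neuron markers, and some of them shared a class. Carhsp1 had r = 0.65 with the summed level of 8 non-peptidergic nociceptor markers and r = -0.46 with 8 neurofilament neuron markers. Abca1 and Gpm6a also went with the non-peptidergic list, with r = 0.52 and r = 0.49. Sept4 had r = 0.60 with the neurofilament markers, and Sptb had r = 0.35 with them and r = -0.47 with 7 peptidergic nociceptor markers. Alkal2 had r = 0.56 with the peptidergic markers and Gpm6a r = 0.56 with 5 markers of TH neurons. Within the 20 intact cells alone, Carhsp1 and the non-peptidergic list had r = 0.74, and Sept4 and the neurofilament list had r = 0.62.

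These neuron class markers also differed in level between the groups. The summed neurofilament list had medians of 1829 CPM with injury and 1535 CPM without it at 1 month, and of 2329 and 3348 CPM at 1 year. The non-peptidergic list had medians of 103 and 48.6 CPM at 1 month and of 103 and 59.8 CPM at 1 year, and its highest single cells lay between 794 and 5715 CPM in the 4 groups. The peptidergic list had medians of 2713 and 1381 CPM at 1 month and of 2619 and 1341 CPM at 1 year, and so was higher in injured cells at both ages, with ranges that overlapped. The part of neuron class in the single-cell differences of the 7 genes was not tested. All coefficients share the cells' depth, since both quantities come from 1 library per cell.

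Abca1 had its highest coefficient, r = 0.61, with 8 satellite glia markers, and S1pr3 had r = 0.44 with the same list. The most abundant gene of that list was Glul, with a mean of 231 CPM after injury and 123 CPM without it at 1 month and of 239 and 162 CPM at 1 year. The summed list had medians of 130 and 135 CPM at 1 month and of 300 and 277 CPM at 1 year. Its part in the Abca1 difference was not tested.

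**Figure D2:**
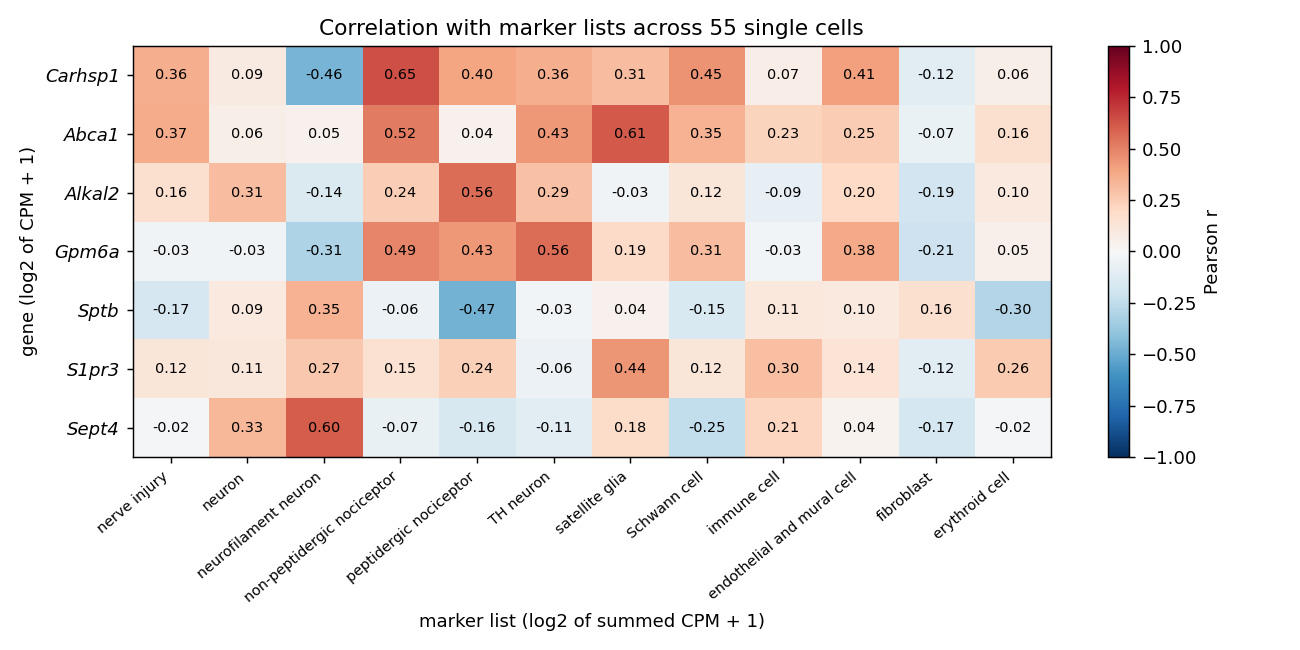
Pearson r across 55 single cells between the log2 level of each gene (rows) and the log2 summed level of each marker list (columns), with blue for negative and red for positive values. The highest coefficients are those of Carhsp1 with non-peptidergic nociceptor markers (0.65), Abca1 with satellite glia markers (0.61) and Sept4 with neurofilament neuron markers (0.60).

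In the low-input libraries Abca1 (chromosome 4, 53030787 to 53159895, minus strand, in the table's mm10 coordinates) had 161, 69.4 and 113 CPM after injury and 37.5, 30.5 and 35.6 CPM without it at 1 month. At 8 months it had 106, 89.2 and 107 CPM after injury and 69.1, 88.97 and 73.6 CPM without it. At 12 months it had 233, 247 and 173 CPM after injury and 8.30, 108 and 8.47 CPM without it. Every injured library lay above every intact library of its age, though the nearest values at 8 months were 89.2 and 88.97 CPM. The intact 12-month value of 108 CPM is that of replicate 2, the library that stands apart, and rests on 60 counts. The 8.30 and 8.47 CPM of replicates 1 and 3 rest on 97 and 39 counts, and CT010467.1 took 80.9% of replicate 3. Without replicate 2, the intact 12-month level of Abca1 therefore rests on those 97 and 39 counts.

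Averaged over the ages, Abca1 rose with injury by log2 1.56 ± 0.39 (SE, 9 injured and 9 intact libraries), 2.96-fold, with adjusted p = 0.0220 by edgeR's quasi-likelihood test. It was the only one of the 7 genes called at an adjusted p under 0.05, where 6.18% of the 14212 genes tested were called, 5.11% higher and 1.07% lower with injury. Fewer cells of a type and less RNA per cell cannot be told apart in these libraries. The call was lost without the injured 1-month replicate 1 (log2 1.46, adjusted p = 0.0541) and with the share of CT010467.1 as a covariate (log2 3.88, adjusted p = 0.0517, where 0.0774% of genes were called), while without the intact 12-month replicate 2 it was log2 2.27 with adjusted p = 1.75e-06. With the replicate number as a block it was log2 1.86 with adjusted p = 0.0174, where 2.31% of genes were called.

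At single ages no gene of the 7 passed the test in edgeR. Abca1 had log2 1.73 ± 0.66 (SE) at 1 month with adjusted p = 0.836, log2 0.39 ± 0.65 at 8 months with adjusted p = 0.903, and log2 2.58 ± 0.71 at 12 months with adjusted p = 0.0610. Of all genes, 0.232% were called at 1 month, 0.957% at 8 months and 2.99% at 12 months. At an unadjusted p under 0.05, 1 of the 7 genes passed at 1 month (Abca1), 0 at 8 months and 2 at 12 months (Abca1 and S1pr3), where 4.5%, 12.2% and 18.6% of all genes did. DESeq2 called 2 of the 7 at 12 months, with 9.28% of all genes, and limma-voom 1 at 1 month and 1 at 12 months, with 0.612% and 3.27%. With the replicate block 5 in place of 33 genes were called at 1 month, none of them among the 7. Without the intact 12-month replicate 2, Abca1 was called at 1 month (log2 1.73, adjusted p = 0.00946) and at 12 months (log2 4.70, adjusted p = 9.83e-06). In that fit 0.183% of genes were called at 1 month and 7.03% at 12 months. None of the other genes of the 7 was called there at any age.

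The Abca1 promoter is shown because it is the one gene of the 7 called in these tests, and because LXR is known to act there. The window, from RefSeq on GRCm38.p6, holds the 250 bases before the annotated start, chr4:53159896-53160145 on the minus strand. Capitals mark an E-box (CACGTG) and a DR4 match, a pair of hexamers spaced by 4 bases as LXR binds them.
Abca1: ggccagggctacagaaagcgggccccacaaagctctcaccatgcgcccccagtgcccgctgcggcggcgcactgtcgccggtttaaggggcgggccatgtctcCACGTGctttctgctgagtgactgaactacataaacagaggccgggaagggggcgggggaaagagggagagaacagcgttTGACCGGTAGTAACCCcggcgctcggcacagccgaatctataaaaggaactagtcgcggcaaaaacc

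The DR4 match lies from 67 to 52 bases before the start, on the opposite strand, and the E-box from 147 to 142 bases before it. DR4 was searched with some freedom in each hexamer, on both strands, after the promoter table had been read and with the known Abca1 element in view. Of 32851 promoter windows of 300 bases, 0.0761% held a DR4 match and 7.15% an E-box. RefSeq gave 11 windows for the 7 genes, and Abca1 alone held either motif. Of 19 windows of 12 other genes of the cholesterol list, 1 held a DR4 match, that of Srebf1, which had log2 -0.19 and adjusted p = 0.693 with injury.

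Motifs of injury-responsive factors were not in these windows. AP-1 (TGANTCA), CRE (TGACGTCA) and the ATF-C/EBP composite (TGATGCAA), on both strands, matched 0 of the 11 windows, and 7.81%, 1.79% and 0.895% of all windows. A window without these letters says nothing about the factors.

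Abca1 was read beside 16 other genes of cholesterol efflux and LXR signalling, all tested. Of the 17, 2 rose and none fell, and Abca1, around which the list was built, is itself among the 2. The list's median, with Abca1, was log2 0.37 where all genes had 0.03. Among the 16 others only Scarb1 rose, a share near the 5.11% of all genes that rose. Scarb1, a receptor for high-density lipoprotein, had log2 2.89 (2.65 ± 0.959 against 0.692 ± 0.758 CPM, SD, n = 9 each, adjusted p = 0.0367). Abcg1, another cholesterol exporter, had log2 -0.39 with adjusted p = 0.377, and Apoe, which carries exported lipid, had log2 1.39 with p = 0.206 and adjusted p = 0.501.

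Alkal2 (chromosome 12, 30884322 to 30893854, plus strand) had 16.7, 5.77 and 56.9 CPM after injury and 37.05, 2.73 and 5.19 CPM without it at 1 month. The 8-month libraries held 6.57, 56.2 and 0.956 CPM after injury and 0, 18.3 and 3.61 CPM without it. Those at 12 months held 9.10, 6.68 and 17.8 CPM after injury and 0.856, 0 and 2.61 CPM without it, where the groups did not overlap. Those intact 12-month values rest on 10, 0 and 12 counts. The averaged change was log2 1.77 ± 0.88 (SE) with adjusted p = 0.278 by edgeR. Its SE was the largest of the 7 genes, and single libraries near 57 CPM stood beside others under 7 CPM in the same group.

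Around Alkal2, 11 of 14 listed ALK ligands, receptors and partners were tested, with 2 risen and none fallen, beside the same 5.11% of all genes, and a median of log2 0.64. Ptprz1, a receptor phosphatase that also binds the ligands Ptn and Mdk, rose by log2 2.69 (5.82 ± 3.57 against 0.855 ± 0.748 CPM, SD, n = 9 each, adjusted p = 0.0199). Shc2, an adaptor of receptor tyrosine kinases, rose by log2 0.87 (39.98 ± 8.41 against 24.2 ± 14.8 CPM, SD, n = 9 each, adjusted p = 0.00864). Alk itself was low, at 1.09 ± 0.936 CPM after injury and 1.89 ± 1.82 CPM without it (SD, n = 9 each), with log2 -0.22 and adjusted p = 0.919.

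S1pr3 (chromosome 13, 51408639 to 51422797, plus strand) had 92.7, 43.1 and 27.7 CPM after injury and 47.7, 16.4 and 25.9 CPM without it at 1 month. At 8 months it had 13.1, 79.9 and 10.2 CPM after injury and 26.9, 20.8 and 1.07 CPM without it. At 12 months it had 62.4, 33.6 and 41.03 CPM after injury and 10.4, 3.61 and 0.652 CPM without it, with no overlap. Those intact 12-month values rest on 121, 2 and 3 counts. The averaged change was log2 1.67 ± 0.58 (SE), 3.19-fold higher with injury, with p = 0.0116 before and adjusted p = 0.107 after adjustment by edgeR, while DESeq2 gave adjusted p = 0.0234. Without the intact 12-month replicate 1 edgeR called it, at log2 2.42 with adjusted p = 0.0474. The intact 12-month group then rested on 2 and 3 counts of S1pr3. Without the intact 12-month replicate 2 S1pr3 had log2 1.64 with adjusted p = 0.129. Of 26 alternatives in all, 4 called S1pr3 and 22 did not, and with the share of CT010467.1 as a covariate it was log2 -0.26. The sign is opposite to that of the single cells, where S1pr3 was lower in injured cells at both ages. At 1 month that difference was small when each cell counted equally, with means of 75.9 CPM in injured and 85.3 CPM in intact cells.

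Of the sphingosine-1-phosphate list, 15 of 18 genes were tested, 1 rose and none fell, a share near that of all genes (5.11%), and the median was log2 0.12. The gene that rose was S1pr2, another receptor for the lipid, by log2 2.67 (4.21 ± 1.60 against 1.02 ± 1.76 CPM, SD, n = 9 each, adjusted p = 0.0293). Sgpl1, the lyase that degrades the lipid, had log2 1.15 with adjusted p = 0.0822.

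Gpm6a (chromosome 8, 54954843 to 55060871, plus strand) had 1.75, 3.72 and 5.92 CPM after injury and 2.02, 7.38 and 24.7 CPM without it at 1 month. The 8-month libraries held 35.2, 1.81 and 10.1 CPM after injury and 0, 17.8 and 30.3 CPM without it. Those at 12 months held 6.47, 6.03 and 8.23 CPM after injury and 5.22, 1.81 and 40.9 CPM without it. The groups overlapped at every age, and the averaged change was log2 -0.99 ± 0.76 (SE) with adjusted p = 0.510 by edgeR, opposite in sign to the single cells. Its proteolipid relative Gpm6b had log2 0.73 with adjusted p = 0.691.

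Sptb (chromosome 12, 76580488 to 76710547, minus strand) had 28.9, 45.6 and 36.3 CPM after injury and 10.6, 41.1 and 17.8 CPM without it at 1 month. At 8 months it had 3.24, 14.2 and 35.4 CPM after injury and 0, 1.95 and 31.8 CPM without it. At 12 months it had 13.9, 20.6 and 18.8 CPM after injury and 40.1, 54.2 and 3.04 CPM without it. The 54.2 CPM is that of the library that stands apart and rests on 30 counts. Without that library the 12-month change was log2 -0.30, where it was -0.79 with it. The groups overlapped at every age and the averaged change was log2 0.17 ± 0.70 (SE) with adjusted p = 0.930 by edgeR, while pooled Sptb was over 6-fold lower in injured single cells at both ages, and lower by log2 -1.51 and -1.45 without the highest cell of each group. None of the 16 of 19 spectrin and ankyrin skeleton genes tested was called in edgeR, and their median was log2 0.02. At an unadjusted p under 0.05 were 3 of the 16, near the 20.3% of all genes that passed it: Ank1, an ankyrin that binds beta-spectrin, at log2 -0.79 (p = 0.0202, adjusted p = 0.148), and the adducins Add2 at log2 0.46 (p = 0.0210, adjusted p = 0.151) and Add3 at log2 1.14 (p = 0.0149, adjusted p = 0.124).

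Sept4 (chromosome 11, 87568903 to 87590539, plus strand) had 19.5, 43.7 and 23.1 CPM after injury and 13.4, 51.6 and 19.96 CPM without it at 1 month. The 8-month libraries held 3.89, 20.6 and 16.2 CPM after injury and 33.2, 6.81 and 41.2 CPM without it. Those at 12 months held 13.8, 16.3 and 12.8 CPM after injury and 67.8, 9.03 and 20.9 CPM without it. The averaged change was log2 -0.75 ± 0.42 (SE) with adjusted p = 0.336 by edgeR, of the same sign as in the single cells, and the groups overlapped at every age. Of 13 listed septins 11 were tested and 1 rose, again beside 5.11% of all genes: Sept9, by log2 1.2015 (34.7 ± 7.67 against 15.05 ± 7.11 CPM, SD, n = 9 each, adjusted p = 0.00616), while no septin fell and the median was log2 0.01.

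Carhsp1 (chromosome 16, 8658587 to 8672153, minus strand) had 32.9, 18.8 and 27.3 CPM after injury and 1.35, 9.88 and 52.1 CPM without it at 1 month. At 8 months it had 153, 57.5 and 75.6 CPM after injury and 21.8, 113 and 130 CPM without it. At 12 months it had 62.6, 67.7 and 62.8 CPM after injury and 17.7, 0 and 59.3 CPM without it, with no overlap, and the library at 0 was the one that stands apart. The averaged change was log2 0.54 ± 0.58 (SE) with adjusted p = 0.650 by edgeR. None of the 6 of 8 cold shock domain genes tested was called, and their median was log2 0.41. No gene of that list had an unadjusted p under 0.05.

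**Figure D3:**
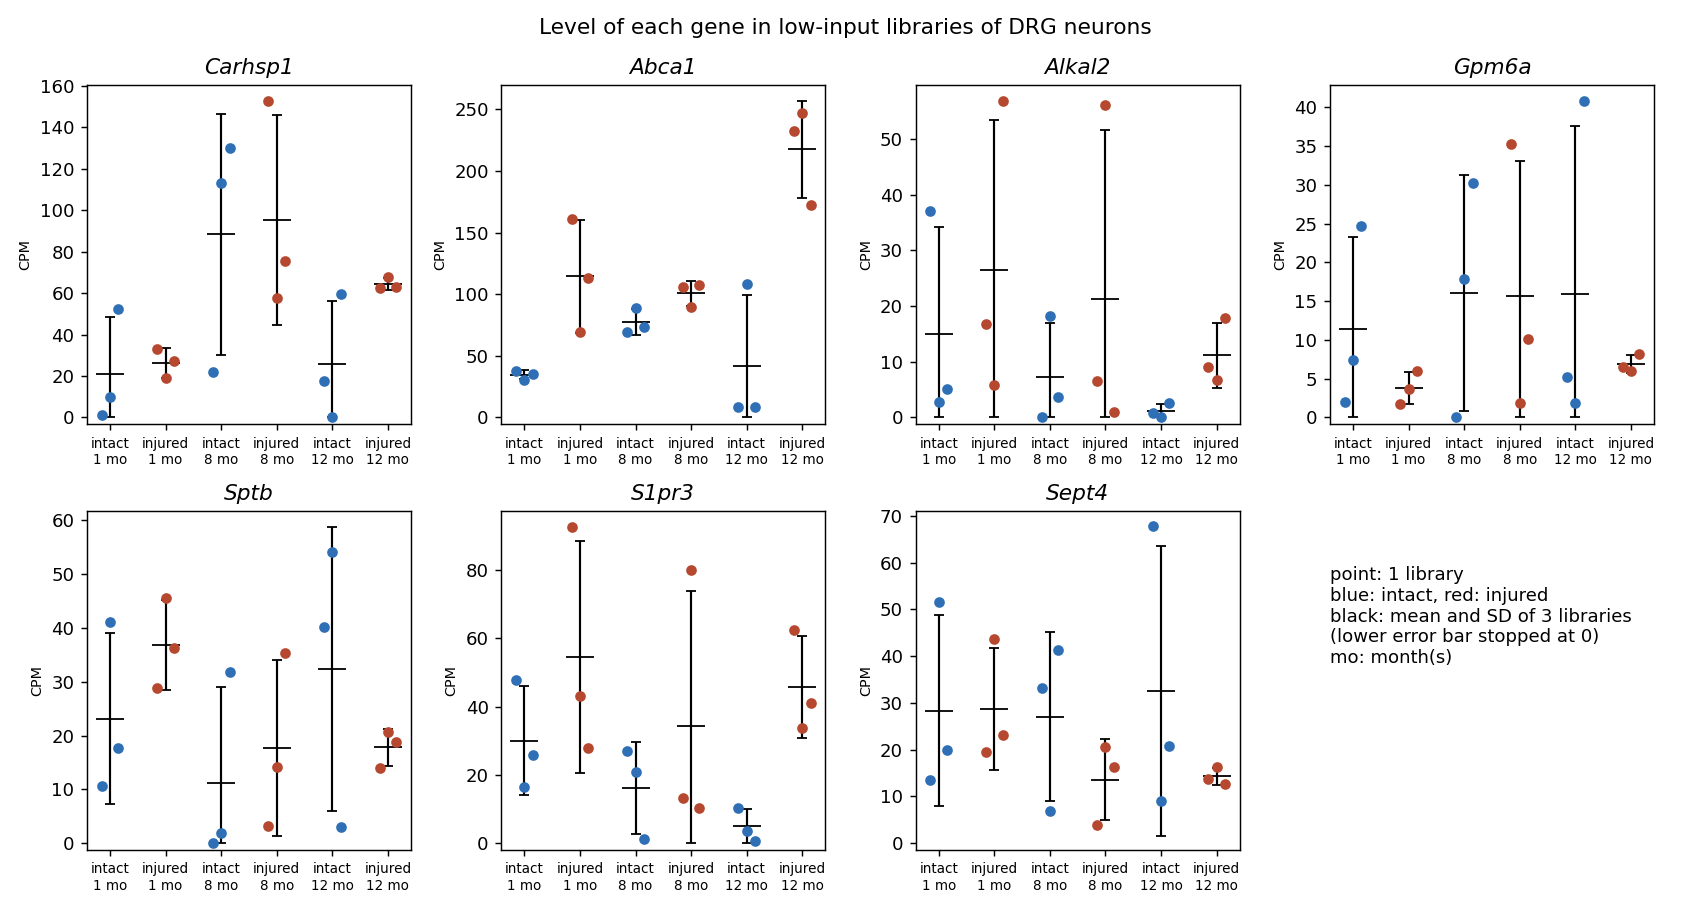
Level of each of the 7 genes in 18 low-input libraries in CPM, by condition and age; each point is 1 library, blue intact and red injured, with the mean and SD of 3 libraries in black. Abca1 is higher in every injured library than in the intact libraries of its age, while Gpm6a, Sptb and Sept4 overlap at all 3 ages.

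All injured libraries lay above all intact libraries for 1 of the 7 genes at 1 month and 1 at 8 months, in both cases Abca1, and for 4 of the 7 at 12 months, Carhsp1, Abca1, Alkal2 and S1pr3. Of all genes tested this held for 10.5%, 9.39% and 19.2% at these ages. Abca1 alone of the 7 showed it at all 3 ages, as did 1.83% of all genes. The share of CT010467.1 also separated the conditions at all 3 ages, with the intact libraries higher. None of the 7 lay wholly below, where 7.28%, 4.92% and 6.68% of all genes did at 1, 8 and 12 months.

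The averaged low-input change had the sign of the single cells for 4 of the 7 genes, Carhsp1, Abca1, Alkal2 and Sept4, and the opposite sign for Gpm6a, Sptb and S1pr3. Of the 7, edgeR called the change of Abca1 alone with all libraries. Among the genes of opposite sign, S1pr3 was called in 4 of 26 alternatives, DESeq2 and edgeR without the intact 12-month replicate 1 among them. Neither of those 2 called Gpm6a or Sptb. The single-cell and low-input CPM are scaled differently, and ages and numbers of cells per library differ, so sizes were not compared.

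**Figure D4:**
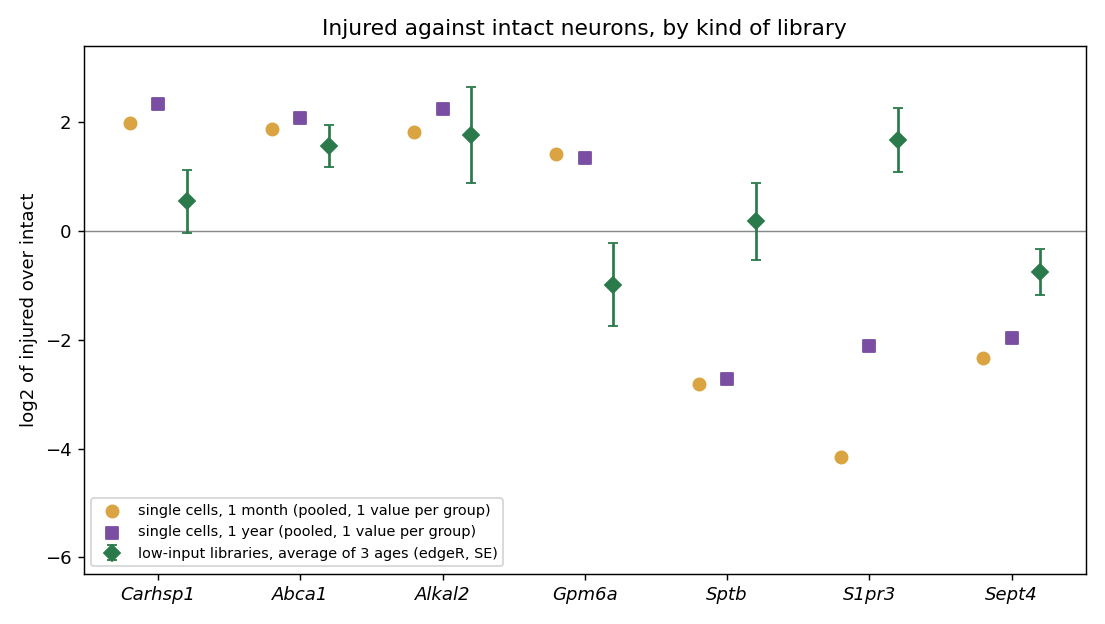
Log2 of injured over intact for each gene from pooled single cells at 1 month (circles) and 1 year (squares), each with no replicate, and from low-input libraries averaged over 3 ages (diamonds, with SE from edgeR). Abca1 and Alkal2 lie above 0 in all 3, and S1pr3 lies at -4.16 and -2.11 in cells and at 1.67 in low-input libraries. The S1pr3 value of cells at 1 month depends on how cells are weighted.

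The injury change did not differ detectably between ages in edgeR: none of the 7 genes was called in the interaction of injury and age, as 0% of all genes were, and no gene of the 7 but 1161 genes of all had an unadjusted p under 0.05. DESeq2 called 1.56% of all genes in the interaction, with adjusted p = 0.634 for Abca1. The lowest interaction p of the 7 was that of Abca1, p = 0.0926 with adjusted p = 0.694. Without the intact 12-month replicate 2, Abca1 was called in the interaction with adjusted p = 0.00124, where 0.0611% of genes were, and by limma-voom with all libraries it had adjusted p = 0.0279. The values behind this are the 8-month libraries, where injured and intact Abca1 levels nearly met, beside the 12-month ones, where they lay farthest apart. Age and sex cannot be told apart at 12 months.

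Between ages within a condition, no gene of the 7 was called by edgeR. In every contrast with 12 months, age and sex cannot be told apart. In intact libraries 0.922% of all genes were called between 8 and 1 month, 0.246% between 12 and 1 month and 6.69% between 12 and 8 months. In injured libraries the shares were 0.225%, 0.113% and 0.0633%. A single value of the 7 had an unadjusted p under 0.05, S1pr3 in intact neurons at 12 against 1 month, with log2 -2.45 ± 1.09 (SE), p = 0.0387 and adjusted p = 0.436. The intact 12-month libraries held only 121, 2 and 3 counts of S1pr3. Without the intact 12-month replicate 2, edgeR called Abca1 in each contrast of intact ages. Abca1 was lower at 12 than at 1 month, log2 -2.04 with adjusted p = 0.00746, where 0.686% of genes were called. It was lower at 12 than at 8 months, log2 -3.20 with adjusted p = 0.000150, where 14.3% of genes were called. At 8 months it was higher than at 1 month, log2 1.16 with adjusted p = 0.0280, where 2.76% of genes were called. Without the intact 8-month replicate 3, Sptb was higher in intact neurons at 12 than at 8 months, log2 4.97 with adjusted p = 0.0355.

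Ordered by group mean, Carhsp1 was highest at 8 months in both conditions, 95.3 ± 50.6 CPM injured and 88.4 ± 58.3 CPM intact (SD, n = 3 each), and lowest in intact libraries at 1 month, 21.1 ± 27.2 CPM. Abca1 ran from 217.5 ± 39.5 CPM in injured libraries at 12 months down to 34.5 ± 3.6 CPM in intact libraries at 1 month. For Abca1 2 of 5 neighbouring pairs in that order did not overlap, for Carhsp1 and Gpm6a 1 of 5, and for Alkal2, Sptb, S1pr3 and Sept4 0 of 5. Over all genes 6.15% of such pairs did not overlap, and neighbours in an order by means are the closest groups by construction. Per kilobase of exon, mean levels in injured libraries were 21.8 CPM for Carhsp1, 13.9 for Abca1, 13.01 for Alkal2, 10.1 for S1pr3, 5.29 for Sept4, 2.74 for Gpm6a and 1.99 for Sptb.

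The 7 genes did not vary as a group from library to library. Over the 18 libraries the highest coefficients among the 21 pairs were r = 0.49 for Alkal2 with S1pr3, r = 0.49 for Abca1 with S1pr3 and r = 0.48 for Carhsp1 with Gpm6a. After the 6 group means were removed these were 0.05, 0.08 and 0.68, and without the intact 12-month replicate 2 they were 0.08, 0.09 and 0.78. Carhsp1 and Abca1 had r = 0.14 over all libraries and r = -0.74 within groups, and the negative value rested on that 1 library: over the other 17 the coefficients were 0.36 and 0.18. In the 55 cells the same pair had r = 0.44, and all these coefficients share the libraries' depth.

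For each gene, the 3 tested genes with the most similar log2 CPM over the 18 libraries were found. They were Slc37a1, Ctxn1 and Slain2 for Carhsp1, with r from 0.94 to 0.95, and Ubn1, Fam160a2 and Spata13 for Abca1, with r from 0.91 to 0.93. Gpm6a varied with Tceal9, Acpp and Bex3, with r from 0.92 to 0.95, and Sptb with Sh3bgr, Clstn2 and Hs3st2, with r from 0.93 to 0.98. Sept4 varied with Ckmt1, Creg1 and Ldhb, with r from 0.90 to 0.93. Ldhb is one of the neurofilament neuron markers with which Sept4 also went across single cells. S1pr3 varied with Ndc1, Dcbld2 and Scyl3, with r from 0.89 to 0.93, and Alkal2 least closely, with Sfrp4, Itga2b and Pnlip at r from 0.82 to 0.86. Without the intact 12-month replicate 2 the 21 coefficients ran from 0.75 to 0.97. With the group means removed as well, those of Abca1 were 0.45, 0.37 and 0.66, where they were 0.91, 0.92 and 0.90 with that library. The within-group coefficients of the other genes ran from 0.69 to 0.98 without it. None of these 21 genes was called with injury, and the lowest adjusted p among them was 0.0599, for Fam160a2.

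Markers of other cells were measured beside these results. The summed satellite glia list lay between 78.4 and 190 CPM in injured and between 42.4 and 173 CPM in intact low-input libraries, with medians of 119 and 85.8 CPM. All 8 of its genes had a log2 value above 0, with a median of 1.84, and 1 was called higher, Gja1 (log2 4.60, adjusted p = 0.0392). Its most abundant genes were Glul and, in injured libraries, Ednrb at 12.9 CPM. The fibroblast list had medians of 35.3 and 7.21 CPM, mainly from Dcn, with 5 of 6 genes tested, a median of log2 2.23 and Col1a2 called higher (log2 3.93, adjusted p = 0.0254), and the immune list medians of 3.45 and 1.85 CPM. The Schwann cell list had medians of 402 and 367 CPM, while its tested genes had a median of log2 -1.47. Among neuron classes, the neurofilament list had medians of 1137 and 1276 CPM and the non-peptidergic list of 170 and 155 CPM. The peptidergic list had medians of 1052.5 and 623 CPM and the TH neuron list of 33.5 and 56.9 CPM. By gene, the median log2 of these 4 lists was -0.34, -0.87, 0.66 and 0.15. The part of these lists in the change of Abca1 or of the other genes was not tested.

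**Figure D5:**
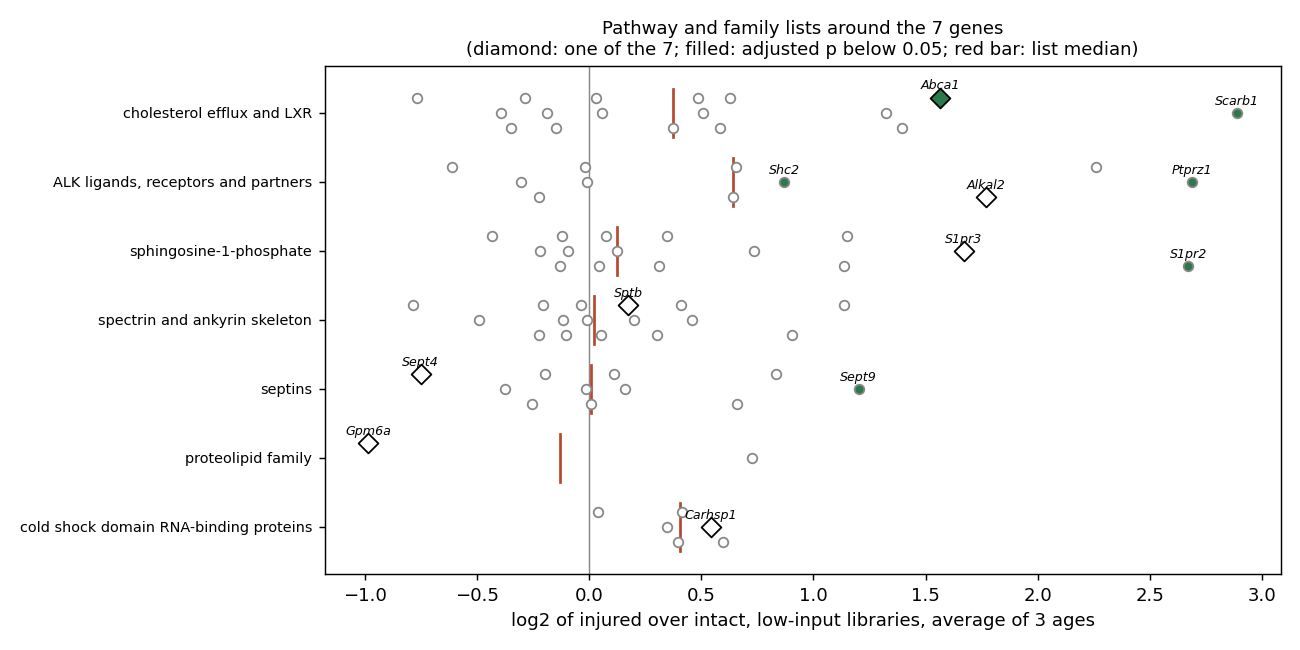
Log2 of injured over intact in the low-input libraries, averaged over 3 ages, for the genes of 7 pathway and family lists; each symbol is a gene, diamonds are the 7 genes, filled symbols have an adjusted p under 0.05 and red bars are list medians. The list medians lie between -0.13 and 0.64, and the filled symbols are Abca1, Scarb1, Shc2, Ptprz1, S1pr2 and Sept9.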

How the data were processed

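The deposited table holds raw counts of read pairs per gene; per the file headers, featureCounts 1.5.2 counted them over exons by gene name, without strand, in the GENCODE vM16 annotation with spike-ins. Per the submitters' processing notes, reads were trimmed with Trim Galore and aligned with STAR to mm10. The table has 87 libraries, and 0 columns of sample values were left unused. The 7 genes and all gene lists were chosen with earlier results of these data known.

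Single cells were pooled per group as CPM without spike-ins and CT010467.1, with a minimum of 100000 counts per cell and exact 95% intervals that cover counting error only. Since no animal is named, each group of cells is 1 sample and has no test. The 18 low-input libraries were fitted together in edgeR 4.0.16 (quasi-likelihood test, TMM scaling, filterByExpr, 6 groups), with Benjamini-Hochberg adjustment over 14212 genes. Low-input CPM use TMM library sizes with CT010467.1 included. The named genes are the 7, the genes of each pathway list called in the averaged contrast, the 3 genes most similar to each of the 7 over the low-input libraries, and the most abundant genes of a marker list. Abcg1, Apoe, Srebf1, Alk, Sgpl1, Gpm6b, Ank1, Add2, Add3 and Gap43 lie outside that rule and were chosen after their values were seen. Some genes of the pathway lists are not reported here, and the lists' counts and medians leave them out. Counting without strand cannot tell a gene from overlapping antisense transcripts. The fit was tested on simulated data. Alternatives used DESeq2 1.42.0, limma-voom 3.58.1, other scalings and filters, and left out each library in turn. Deviations of same-numbered injured and intact libraries from their group means had correlations of 0.151, 0.208 and 0.387 at 1 month. They were -0.295, -0.279 and 0.188 at 8 months and -0.0429, -0.0383 and 0.0319 at 12 months. Differently numbered libraries ran from -0.384 to 0.170 at 1 month and reached 0.452 at 8 months. These values do not settle whether the numbers mark pairs. Promoter windows came from RefSeq (GRCm38.p6).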

Additional observations from a re-analysis of the deposited data

Results flagged for a closer look

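Both values below lie among the 8 intact single cells at 1 year, where 1 cell stood farther from the others than Dixon's 95% critical value of 0.526 allows. For Carhsp1 it was a cell at 73.8 CPM, whose gap to the next cell was 0.664 of the group's range. For Gpm6a it was another cell, at 148 CPM, with a gap of 0.983 of the range. Chance alone marks about 1 in 20 groups in this way.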

How the results depend on the processing

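Abca1, averaged over ages, was called in 24 of 26 alternatives, from log2 1.38 to 2.27 with 1 library left out. Of the 7 genes, edgeR called 1 in the averaged contrast and 0 in each other. Scaling to ERCC totals, which moved the median of all genes from log2 0.03 to 2.90, called 7 in the averaged contrast (with 94.9% of all genes), 7 at 12 months (96.2%), 7 between intact libraries of 12 and 1 month (89.9%) and 2 of 12 and 8 months (6.09%). It reversed Gpm6a (1.56 averaged, 0.80 at 8 and 4.37 at 12 months), Sept4 (2.10, 2.18 and 3.32) and, at 12 months, Sptb (4.48); relative to the shifted median, Gpm6a was -1.34 and Sept4 -0.80 averaged. Without an expression filter the calls were 4 averaged, 1 at 1 month (with 0.968% of all genes), 1 at 8 and 3 at 12 months. They were 2 in the interaction and 2 for injured 8 against 1 month. Between intact ages they were 1, 2 and 4 (8 against 1, 12 against 1, 12 against 8 months). Where a count of calls has no share of all genes beside it, nothing is read from it. Removing CT010467.1 called 1 at 12 months. Its share as a covariate called 0 averaged and 1 for intact 12 against 8 months, and reversed Gpm6a (0.95 averaged, 1.21 at 8, 2.68 at 12 months), Sptb (-0.67 averaged, -0.15 at 8 months), S1pr3 (-0.26 averaged, -0.68 at 8, -0.26 at 12 months) and Sept4 (-0.56 at 1 month). A fit of 6 libraries alone called 2, Carhsp1 and Sptb, for injured 12 against 1 month. Limma-voom called 1 each at 1 month, at 12 months and in the interaction. It also called 1 for injured 12 against 1 month (6.90% of all genes) and 1 for injured 12 against 8 months (3.55%). It reversed Sept4 at 1 month (-0.044) and Carhsp1 at 8 months (-0.21). DESeq2 called 2 averaged (with 10.9% of all genes) and 2 at 12 months (9.28%). The cause of these changes was not tested. With 1 library left out the calls ran from 0 to 2 averaged, and from 0 to 1 at 1 month, at 12 months, in the interaction and in each intact age contrast. Signs turned in these ranges: Sptb averaged -0.16 to 1.36; at 1 month Carhsp1 -0.22 to 2.21, Alkal2 -0.41 to 2.74 and Sept4 -0.41 to 0.78; at 8 months Carhsp1 -0.41 to 0.50, Alkal2 -0.96 to 3.52, Gpm6a -1.43 to 0.82, Sptb -0.36 to 4.19 and S1pr3 -0.47 to 1.67; at 12 months Gpm6a -1.79 to 0.68. With the replicate block the averaged contrast called 329 in place of 878 genes and changed no call among the 7 (Abca1 1.86, adjusted p = 0.0174). The pooled single-cell directions did not turn with another denominator, depth minimum or cell weighting, nor without the highest cell of each group. By ganglion at 1 month, a split added after the values were seen, Gpm6a turned in L4 cells (-0.96) and Abca1 in L5 cells (-0.42). Depth limits the intact 12-month replicate 2 most, with 0 counts for Carhsp1 and Alkal2.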
